A study of Homo sapiens with 20 samples.

Results

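The comparison is between H4 and 42MGBA, established cell lines from human GBM (glioblastoma), each of which carries a naturally occurring truncating mutation of its own in STAG2. Their chromatin loops were compared directly to describe how far 2 lines with the same mutated gene resemble each other. The members are merged loops, that is the union of the 100000 strongest anchor pairs of each parental cell line, matched on both anchors, and there were 149005 of them among 572000 anchor pairs listed in any of the 4 cell lines of the series. Hi-C, in which chromatin that is close in space is joined by ligation and sequenced, was performed on 2 biological replicates of parental H4 and of parental 42MGBA, both STAG2-mutant, and of H4 88-1 and 42MGBA 53-1, in each of which the mutation had been corrected by gene editing. Each derivative is a single line, and all 4 lines were grown in the same medium with serum. The authors pooled the replicates into 1 list of 300000 anchor pairs per cell line, so that every value below is a single value per line, no spread between replicates or counting error can be given, and no test was run. The values are loop strengths, a contact signal at pairs of 5 kb anchors after bias correction and enhancement, without read counts.

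Cohesin is a ring-shaped protein complex that extrudes chromatin into loops, and STAG1 and STAG2 are alternative subunits of it. CTCF bound at a loop anchor stops the moving ring, most often where the CTCF motifs of both anchors point toward each other. Among other loops are those that join promoters to enhancers and differ between cell types. The loops at a gene start thus record contact with distal elements, and not whether those elements activate or repress the gene.

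Loops do not measure expression, but the defining markers of brain tumor cells already separated the lines. At the start of SOX2, a transcription factor of neural stem cells, 39 anchor pairs were listed in H4, 33 in H4 88-1, and 0 in both 42MGBA and 42MGBA 53-1. At GFAP, the intermediate filament of astrocytes, the counts were 52 in H4 against 5 in 42MGBA, and 40 in H4 88-1 against 9 in 42MGBA 53-1. At NES, the intermediate filament of neural progenitors, they were 28 against 2 in the parental lines and 18 against 0 in the derivatives. The H4 lists were higher at all 3 genes. The order was the opposite at the mesenchymal gene CD44, a hyaluronan receptor, with 62 pairs in H4 and 197 in 42MGBA, although 42MGBA 53-1 with 69 lay close to H4 88-1 with 71. VIM, the mesenchymal intermediate filament, had 48 pairs in H4 against 117 in 42MGBA, and 45 in H4 88-1 against 144 in 42MGBA 53-1. S100B, OLIG2, AQP4 and FABP7 had no pair in any list, and CHI3L1, a mesenchymal marker, had 2 in H4 88-1 alone. Of the endothelial and blood markers TEK and SPI1 had no pair in any list, CDH5 had 1 each in H4 and H4 88-1, CD3E had 2 in H4 88-1 alone, and PTPRC had 14 in H4 and 24 in 42MGBA, none among the strongest 100000 of either. No pair lay at the start of STAG2 in any list, so the loops do not check the genotype.

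The sequences below are matches to the CTCF motif at anchors of some of the strongest loops, and anchors without a match are not shown. They are 30 bases each, read 5′ to 3′ on the strand given from the GRCh37 genome, which is the build of the lists (hg19), and the capitals mark the core of the CTCF motif (CCA, any 2 bases, AG, any base, G or T, GGC).
Strongest shared loop, left anchor, chr11:130304537-130304566, plus strand: acattatggCCAGGAGGTGGCactgttgga
Strongest shared loop, right anchor, chr11:130732052-130732081, minus strand: tctgaaattCCACAAGAGGGCgcccaaggt
H4-restricted loop near SEMA3C, left anchor, chr7:80328529-80328558, plus strand: gtgaaaattCCACTAGATGGCagatgaaat
H4-restricted loop of SOX2, left anchor, chr3:181427479-181427508, plus strand: gcgaatctaCCAGCAGGGGGCgcaccagcc
42MGBA-restricted loop next to the start of SLC24A3, left anchor, chr20:19186749-19186778, plus strand: ttaccgctgCCACCAGGGGGCgcaccgcca
42MGBA-restricted loop next to the start of SLC24A3, right anchor, chr20:19563483-19563512, plus strand: ccccaaggaCCATGAGGTGGCaggcctggc
The last 2 sequences belong to the second strongest 42MGBA-restricted loop, whose left anchor, chr20:19181920-19186784, adjoins that of the strongest and lies more than 3 kb from the start of SLC24A3. The sequence near SEMA3C belongs to the second strongest H4-restricted loop, with its left anchor at chr7:80323897-80328881. No match lay in either anchor of the strongest H4-restricted loop or in the left anchor of the strongest 42MGBA-restricted loop. The right anchor of the SOX2 loop held none either. The first 2 sequences belong to the shared loop with the highest minimum strength and face each other across it. Both lie between genes, with ADAMTS8 and SNX19 the nearest gene starts. That loop joins chr11:130302013-130306571 to chr11:130727180-130732101 over 425 kb, and its strengths were 28.4 (H4), 28.0 (H4 88-1), 38.3 (42MGBA) and 27.1 (42MGBA 53-1). It was thus strong in all 4 lines. The sequences are those of the reference genome and not of the cell lines, and 5 of the 6 lie outside protein-coding genes, the last in an intron of SLC24A3.

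Of the 149005 merged loops, 50995 or 34.2% were among the strongest 100000 of both lines and are called shared. A loop is called line-restricted when it was among the strongest 100000 of 1 line and absent from all 300000 pairs of the other. There were 22421 H4-restricted loops (15.0% of merged loops) and 22479 42MGBA-restricted loops (15.1%). The remaining 53110 loops (35.6%) were strong in 1 line and listed at a lower rank in the other. Agreement was lowest among the strongest loops, since 271 of the strongest 1000 of each line (27.1%), 42.3% of the strongest 10000, 51.0% of the strongest 100000 and 52.8% of all 300000 were in both. Neighbouring anchor pairs often belong to the same contact. With anchors matched within 10 kb the shared percentage was 66.6%, with 9387 H4-restricted and 10931 42MGBA-restricted loops, and with neighbours joined there were 2923 H4-restricted and 3045 42MGBA-restricted groups.

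The lines resembled each other less than each resembled its own STAG2-corrected derivative. H4 and H4 88-1 shared 54.5% of their 129476 merged loops, and 42MGBA and 42MGBA 53-1 shared 52.4% of 131211. The corrected lines, H4 88-1 and 42MGBA 53-1, shared 32.4% of 151046, a percentage near that of the parental lines. Over the 104105 merged loops listed in both parental lists, log2 strengths had a Pearson correlation of 0.35 and a Spearman correlation of 0.22. The Pearson correlation was 0.65 over 120196 loops within the H4 system and 0.65 over 117935 within the 42MGBA system. These correlations describe loops, which share anchors and neighbours and are not independent.

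Absent loops were set to the floor of the list they were missing from, 4.14 in H4 and 4.49 in 42MGBA, so that their fold differences are lower bounds. The median log2 ratio of H4 to 42MGBA over all merged loops was -0.10, with an SD of 0.56 over loops. It was 0.54 over H4-restricted and -0.74 over 42MGBA-restricted loops. With these floors most restricted loops were thus less than 2-fold apart, and absence from a list does not show that a loop is missing from the cells. By a threshold of 2-fold, 2101 loops were higher in H4 (1.41% of merged loops) and 5502 were higher in 42MGBA (3.69%). This split depended on scaling. Centring the ratios on their median gave 3575 against 3262 loops, and giving both lines the same value at each rank gave 3818 against 3541. Centring on the median of each chromosome gave 2767 against 5268, and without chromosome 7 there were 1188 against 5224. Among loops listed in both lines the largest ratio toward H4 was at chr7:105814066-105818963 and chr7:106101053-106105994, 287 kb apart between SYPL1 and NAMPT, with strengths of 17.8 (H4), 14.3 (H4 88-1), 4.87 (42MGBA) and 6.02 (42MGBA 53-1), a 3.67-fold difference between the parental lines. The largest ratio toward 42MGBA was at chr1:85774194-85779153 and chr1:86040701-86045331, where the right anchor holds an exon of DDAH1 within 3 kb of a start of CCN1, a matricellular protein, with strengths of 4.23 (H4), 7.49 (H4 88-1), 17.9 (42MGBA) and 17.6 (42MGBA 53-1). That is a 4.23-fold difference. In both cases each derivative lay on the side of its own parent.

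**Figure D1:**
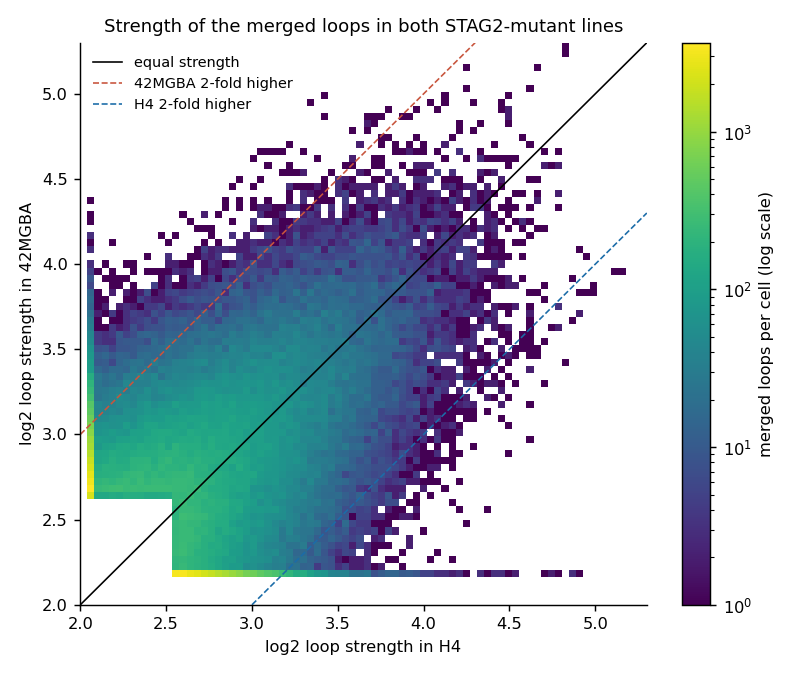
Strength of the 149005 merged loops in H4 (x axis) and 42MGBA (y axis), both as log2, with color for the number of loops per cell on a log scale. The bands at the left and lower edges are loops absent from the H4 or 42MGBA list, set to the lowest listed strength of 4.14 and 4.49. The empty corner lies below both limits of the strongest 100000, and the dashed lines mark 2-fold.

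The limit of the strongest 100000 fell within a dense part of each list. In H4 the last pair inside it had 5.82938 and the first outside 5.829378, and in 42MGBA these strengths were 6.226684 and 6.226678.

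The direction of the difference varied by chromosome. The median log2 ratio per chromosome ran from -0.64 on chromosome 20 to 0.44 on the X chromosome, with an SD of 0.33 over 23 chromosomes, of which 10 lay above 0 and 13 below. Chromosome 7 had a median of 0.42, and 5381 of its 16193 merged loops were H4-restricted (33.2%) against 7.68% 42MGBA-restricted. It alone held 24.0% of all H4-restricted loops. Chromosome 17 had a median of 0.39 with 33.9% H4-restricted, and the X chromosome, with 664 merged loops, had 56.0% H4-restricted. On the other side chromosome 20 had 30.8% 42MGBA-restricted loops and 1.15% H4-restricted, followed by chromosome 15 with 27.0%, chromosome 1 with 22.9%, chromosome 22 with 22.4% and chromosome 14 with 21.6% 42MGBA-restricted. Each of the 6 windows of 10 Mb on chromosome 20 lay below 0, and the 15 windows of chromosome 7 ran from -0.03 to 0.59, whereas the windows of chromosome 1 ran from -0.90 to 0.46. The shift was smaller but present among loops listed in both lines, where chromosome medians ran from -0.52 to 0.27.

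**Figure D2:**
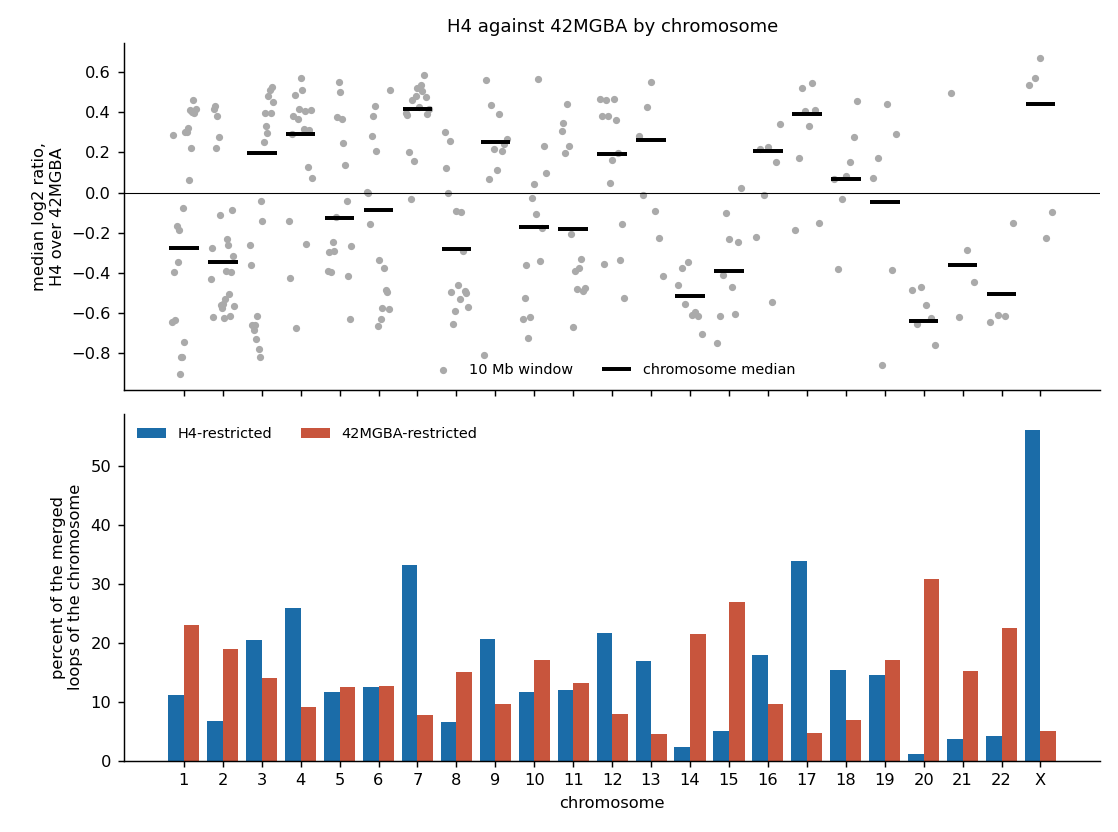
The upper panel gives the median log2 ratio of H4 to 42MGBA by chromosome (black bars) and by 10 Mb window in order along the chromosome (grey points, windows with at least 50 merged loops). The lower panel gives the percent of merged loops that were H4-restricted (blue) or 42MGBA-restricted (red). Chromosomes 7, 17 and X stand highest toward H4 and chromosomes 20, 14 and 22 lowest.

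Most chromosomes leaned the same way in the STAG2-corrected derivatives. The median of H4 88-1 against 42MGBA 53-1 had the same sign as that of the parental lines on 18 of 23 chromosomes, with a Pearson correlation of 0.84 and a Spearman correlation of 0.82 over chromosomes. The other 5, chromosomes 6, 8, 11, 19 and 22, all turned from 42MGBA toward H4, with chromosome 11 going from -0.18 to 0.56 and chromosome 22 from -0.50 to 0.15. Chromosome 19 went from -0.04 to 0.16. The median over all merged loops also moved toward H4, from -0.10 in the parental lines to 0.08 in the derivatives. No scaling between lists is stated, and this general shift was not taken out of the chromosome medians. The derivative lists share no library with the parental lists, but the cells descend from the parental lines.

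At a finer scale, 1855 windows of 1 Mb had at least 20 pairs in the full list of either line, and in some of them the other line had none. There were 88 windows with pairs in H4 and none in 42MGBA, and 58 of the opposite kind. Of the 88 windows, 75 had a pair in H4 88-1 and 78 had none in 42MGBA 53-1. Of the 58, 50 had a pair in 42MGBA 53-1 and 33 had none in H4 88-1. The 42MGBA window with the most pairs was chr10:31000001-32000000, which holds the starts of ZEB1, a transcription factor of epithelial-mesenchymal transition, and ZNF438. It had 333 pairs in 42MGBA, 645 in 42MGBA 53-1, and 0 in both H4 and H4 88-1. The window of SOX2, chr3:181000001-182000000, had 110 pairs in H4, 108 in H4 88-1, and 0 in both 42MGBA lists. The H4 window with the most pairs was chr7:107000001-108000000, which holds the starts of the laminins LAMB1 and LAMB4, with 394 pairs in H4 against 0 in 42MGBA, and 226 in H4 88-1 against 14 in 42MGBA 53-1. These pairs are not all at those starts, since the strongest loop of NRCAM, a gene annotated to start outside the window, was counted there. The windows and the genes in them were named after their values were seen.

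Loops restricted to H4 were longer than those restricted to 42MGBA. The median size, measured between anchor midpoints, was 444 kb for H4-restricted loops (quartiles 280 and 666 kb), 295 kb for 42MGBA-restricted loops (174 and 460 kb) and 341 kb for shared loops. The difference of 149 kb was positive on 17 of the 21 chromosomes with at least 50 loops of both kinds, ran from -329 to 402 kb over chromosomes, and had an SD of 163 kb. It was 91.8 kb without chromosome 7, 75.05 kb over groups of joined neighbours and 225 kb with anchors matched within 10 kb. Of merged loops under 100 kb, 13.4% were H4-restricted and 30.04% were 42MGBA-restricted, and of those of 1000 kb or more, 30.04% were H4-restricted and 12.7% were 42MGBA-restricted. The median log2 ratio moved with size in the same way, from -0.33 under 100 kb to 0.36 at 1000 kb or more.

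**Figure D3:**
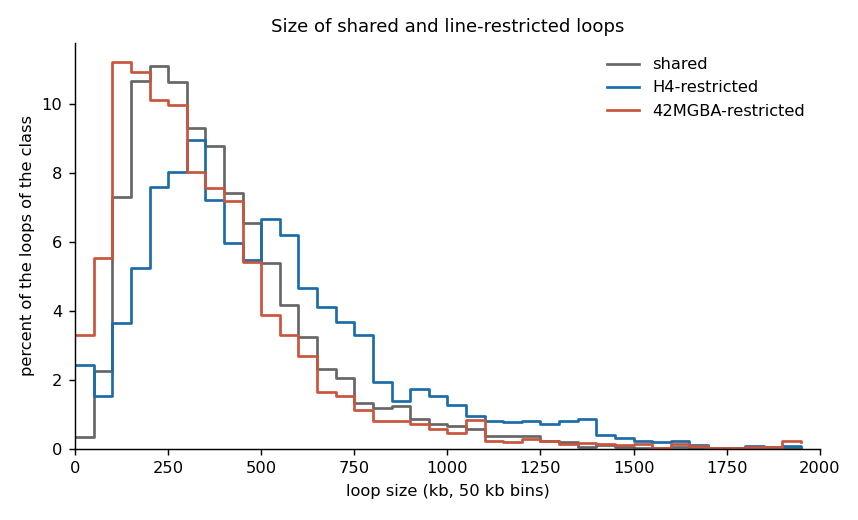
Size of shared (grey), H4-restricted (blue) and 42MGBA-restricted (red) loops in 50 kb bins, as a percent of each class. The H4-restricted curve lies to the right of the others, with medians of 444 kb against 341 kb for shared and 295 kb for 42MGBA-restricted loops.

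The derivative lists played no part in choosing the loops. Of the H4-restricted loops, 87.5% were listed in H4 88-1 and 16.6% in 42MGBA 53-1. Of the 42MGBA-restricted loops, 86.6% were listed in 42MGBA 53-1 and 33.3% in H4 88-1. Of shared loops, 98.6% were listed in H4 88-1 and 95.0% in 42MGBA 53-1. Thus 71.6% of H4-restricted loops were listed in H4 88-1 and not in 42MGBA 53-1, and 55.8% of 42MGBA-restricted loops were listed in 42MGBA 53-1 and not in H4 88-1. Another 15.9% of H4-restricted and 30.8% of 42MGBA-restricted loops were in both derivatives, and 11.8% and 10.9% were in neither. The share of H4-restricted loops found in H4 88-1 lay between 69.4% on chromosome 22 and 93.7% on chromosome 17. The share of 42MGBA-restricted loops found in 42MGBA 53-1 lay between 58.8% on chromosome 4 and 97.2% on chromosome 15.

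The core of the CTCF motif was searched on both strands of every anchor. It lay in 15.3% of the anchors of shared loops, 13.6% of those of H4-restricted loops and 13.0% of those of 42MGBA-restricted loops, against 10.8% of the 128517 anchors of the lists that were searched and 7.22% of 578950 genome tiles of the same median width. Where both anchors of a loop held the motif on a single strand each, the motifs faced each other in 55.6% of 1543 shared loops, 45.0% of 416 H4-restricted loops and 40.1% of 411 42MGBA-restricted loops. They pointed away from each other in 5.83%, 8.17% and 9.002%. Keeping only the strongest loop of each group of neighbours, the facing share was 79.9% of 298 shared, 66.0% of 94 H4-restricted and 55.1% of 89 42MGBA-restricted loops. The shared loops had the highest share by both counts. They were also stronger, with a median strength in the stronger line of 9.05, against 6.50 for H4-restricted and 6.92 for 42MGBA-restricted loops. With the strongest 50000 merged, the facing shares were 58.6%, 51.9% and 48.7%. The classes were not compared at equal strength. The GC content of the anchors had medians of 42.3%, 41.0% and 41.8%. A match is a description of the sequence and does not show binding.

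Loops were assigned to a gene by its transcript starts, with up to 3 kb allowed between start and anchor. Such an anchor was present in 45.0% of shared, 40.3% of H4-restricted and 44.3% of 42MGBA-restricted loops. Merged loops lay at 5068 protein-coding genes, of which 1769 (34.9%) had an H4-restricted loop, 1760 (34.7%) had a 42MGBA-restricted loop and 170 had both. A stricter set had at least 3 loops among the strongest 100000 of 1 line and no pair at all in the list of the other. By this rule 219 genes (4.32%) were H4-only and 222 (4.38%) were 42MGBA-only. Of the 219 H4-only genes, 207 had a pair in H4 88-1 and 147 had none in 42MGBA 53-1. Of the 222 42MGBA-only genes, 205 had a pair in 42MGBA 53-1 and 131 had none in H4 88-1.

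Among H4-only genes, SOX6 and SEMA3C had the most restricted loops. SOX6 (chr11:15987995-16761138, minus strand), a SoxD transcription factor of neural and skeletal development, had 142 pairs in H4, 82 in H4 88-1, and 0 in 42MGBA and 42MGBA 53-1. All 75 of its merged loops were H4-restricted, and they ran from an internal start of the gene, which lies beside a start of C11orf58, to a region beyond its 3′ end. The strongest joined chr11:15868501-15873287, where no protein-coding gene lies, to chr11:16627400-16632051 over 759 kb, with strengths of 10.2 (H4) and 7.78 (H4 88-1). SEMA3C (chr7:80371854-80551675, minus strand), a secreted class 3 semaphorin that guides axons, had 145 pairs in H4, 74 in H4 88-1 and 0 in both 42MGBA lists. Its strongest loop, from chr7:80541415-80546311 in an exon of SEMA3C to chr7:81081381-81086388 where no protein-coding gene lies and HGF is nearest, had strengths of 17.0 in H4 and 12.2 in H4 88-1, at least 3.78-fold higher in H4 than in 42MGBA. The strongest H4-restricted loop of the genome ended beside the same distal anchor, joining chr7:80328882-80333836 to chr7:81086389-81091289 over 757 kb with strengths of 29.9 (H4) and 25.03 (H4 88-1). No protein-coding gene lies at either anchor. It was absent from 42MGBA and 42MGBA 53-1, a difference of at least 6.67-fold between the parental lines.

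Other H4-only genes named by the same count were spread over 5 chromosomes. NRCAM, a neuronal adhesion molecule, had 91 pairs in H4 and 60 in H4 88-1, and MECOM, a zinc finger transcription factor, had 95 and 67. PPP2R5A, a regulatory subunit of protein phosphatase 2A, had 57 and 43 on chromosome 1, and RHOU, an atypical small GTPase, had 78 and 49 on the same chromosome. Chromosome 1 had a median log2 ratio of -0.28, but those of the 10 Mb windows of PPP2R5A and RHOU were 0.40 and 0.46. AKAP1, a mitochondrial anchor of protein kinase A, had 87 and 110 on chromosome 17. ASNS, which makes asparagine, had 54 and 35, and AASS, which degrades lysine, had 63 and 15, both on chromosome 7. ENSG00000226690, a gene without a symbol in the annotation, had 107 and 49 on chromosome 7, with a loop of 1066 kb whose anchors hold facing CTCF motifs. TEX14, of germ cell bridges, had 42 and 43 on chromosome 17. All of them were at 0 in 42MGBA, and only TEX14 with 2 pairs and ASNS with 8 were listed in 42MGBA 53-1. HUWE1, a ubiquitin ligase on the X chromosome, was of another kind. Its 27 restricted loops spanned between 4.87 and 67.9 kb, and it had 155 pairs in H4 and 41 in H4 88-1.

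Of the 42MGBA-only genes, SLC24A3 had the strongest loop. SLC24A3 (chr20:19193286-19703570, plus strand), a potassium-dependent sodium/calcium exchanger, had 107 pairs in 42MGBA, 93 in 42MGBA 53-1 and 0 in both H4 lists. Its strongest loop, from chr20:19186785-19191351 before the gene to chr20:19562761-19567725 within it, was the strongest 42MGBA-restricted loop of the genome, with strengths of 20.8 in 42MGBA and 14.6 in 42MGBA 53-1, at least 5.01-fold higher in 42MGBA than in H4. The CTCF motifs shown above for its right anchor and for the anchor next to its left point the same way. COL6A2 (chr21:47518026-47552762, plus strand), a chain of collagen VI, had 99 pairs in 42MGBA, 144 in 42MGBA 53-1, 4 in H4 88-1 and 0 in H4. All of its 38 restricted loops ran upstream, toward the neighbouring collagen VI gene COL6A1, and the strongest, from chr21:47389997-47394939 to chr21:47518203-47522997, had strengths of 15.3 in 42MGBA, 14.3 in 42MGBA 53-1 and 5.11 in H4 88-1. ARHGAP12, a GTPase-activating protein, was looped over 1055 kb across the region of ZEB1, with 115 pairs in 42MGBA, 138 in 42MGBA 53-1 and 0 in both H4 lists.

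**Figure D4:**
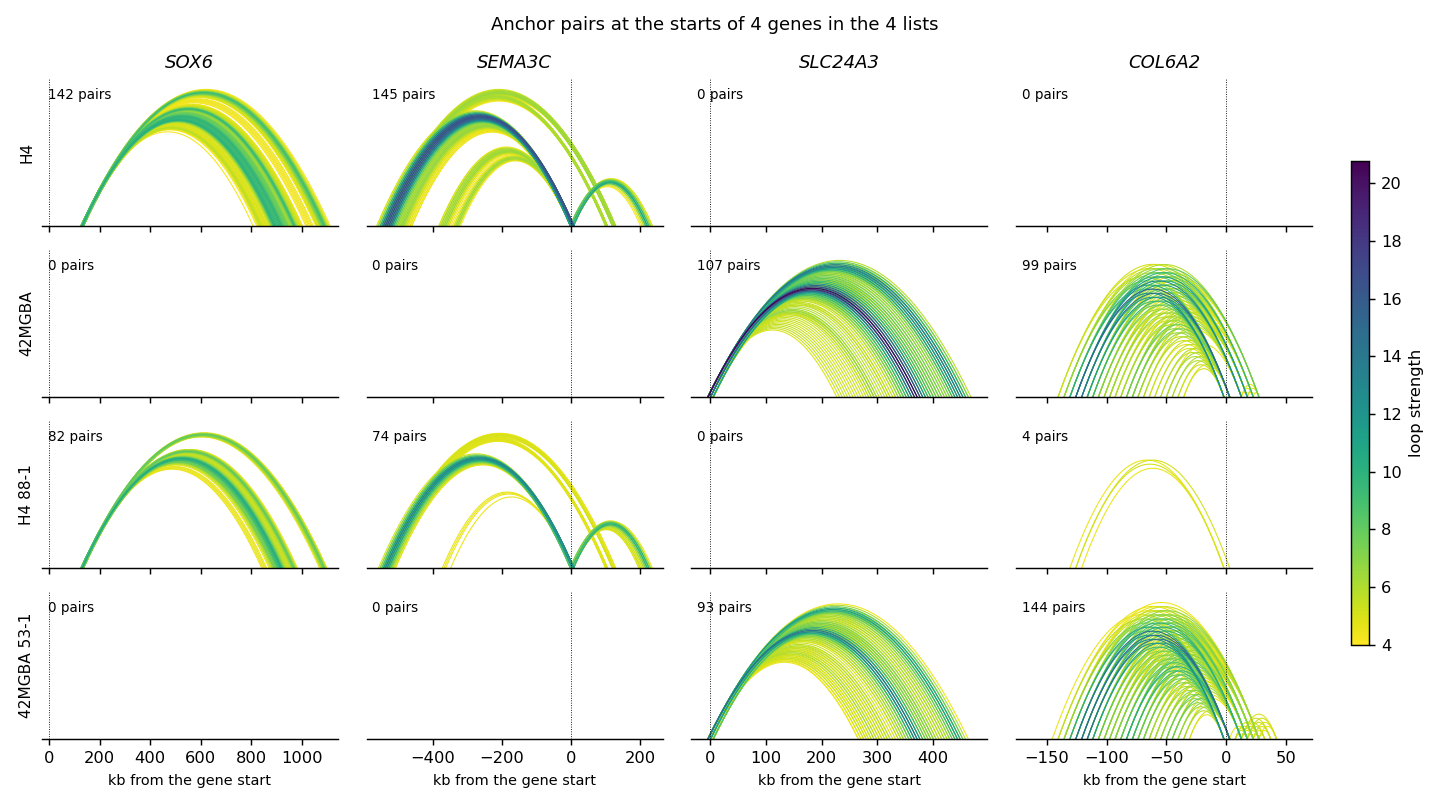
Anchor pairs at the starts of SOX6, SEMA3C, SLC24A3 and COL6A2 (columns) in the 4 lists (rows), drawn as arcs against distance from the annotated gene start in kb, with negative values upstream and color for loop strength. SOX6 and SEMA3C have arcs only in H4 and H4 88-1, SLC24A3 only in 42MGBA and 42MGBA 53-1, and COL6A2 has 4 weak arcs in H4 88-1 beside those of 42MGBA and 42MGBA 53-1.

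OLFML3, a secreted glycoprotein, had 109 pairs in 42MGBA and 128 in 42MGBA 53-1, and RMDN2, which binds microtubules, had 71 and 99. FUT8, which adds core fucose to proteins, had 81 and 84. In H4 88-1, FUT8 had 8 pairs, OLFML3 had 1 and RMDN2 had 0. Another 4 genes had 13 or more pairs in H4 88-1 as well. APPL2, an endosomal adaptor, had 199 pairs in 42MGBA, 205 in 42MGBA 53-1 and 13 in H4 88-1. PMEPA1, an inhibitor of TGF-beta signalling, had 84, 104 and 35, SH3BP4 of endocytosis had 89, 155 and 36, and AMOTL2, which binds YAP, had 56, 49 and 19. All were at 0 in H4, the parent of H4 88-1. FIP1L1, a polyadenylation factor on chromosome 4, had 213 pairs in 42MGBA, 81 in 42MGBA 53-1 and 0 in both H4 lists, and its 61 restricted loops had a median size of 47.9 kb.

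**Figure D5:**
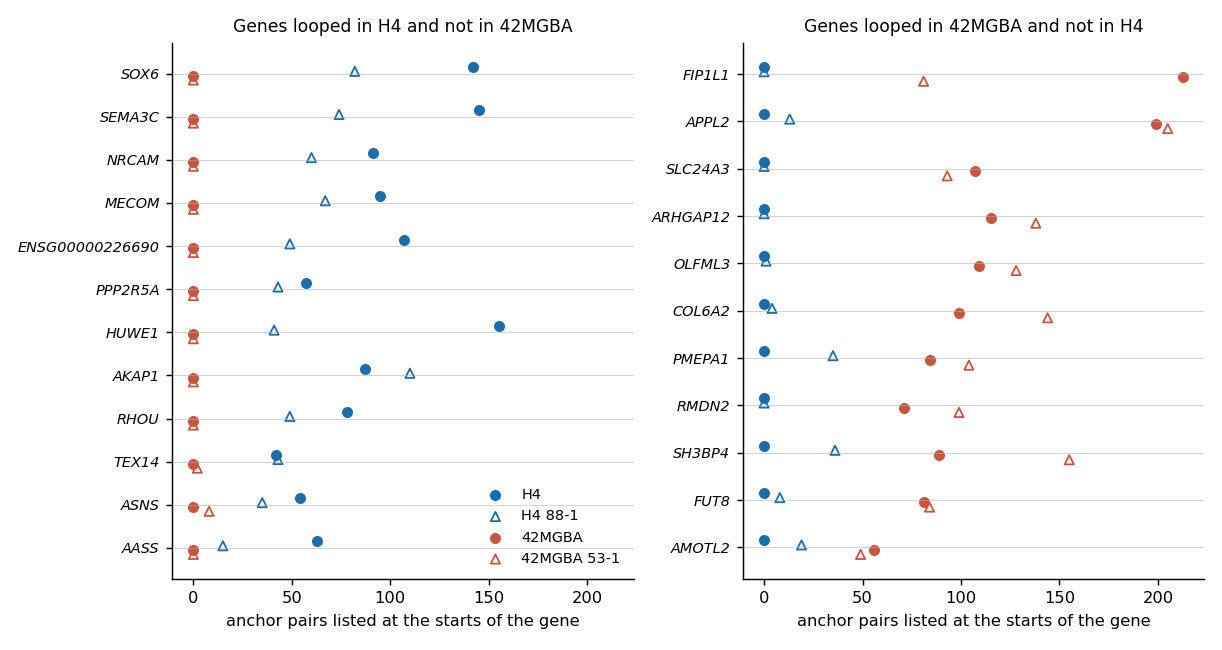
Anchor pairs listed at the starts of the 12 named H4-only genes (left) and 11 named 42MGBA-only genes (right), in H4 (blue circles), H4 88-1 (blue triangles), 42MGBA (red circles) and 42MGBA 53-1 (red triangles). The other parental line is at 0 by the rule, and at all 23 genes shown the derivative of the looped parent, which the rule did not use, had more pairs than the other derivative.

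Some genes had restricted loops of both lines. HOXB3 had 81 H4-restricted, 25 42MGBA-restricted and 102 shared loops, with 462 pairs in H4 and 309 in 42MGBA. Its strongest H4-restricted loop joined chr17:46339672-46344512 in an intron of SKAP1 to chr17:46660864-46664965 in an intron of HOXB3, with strengths of 8.98 (H4) and 9.48 (H4 88-1). COL12A1, a collagen associated with fibrils, had 26 H4-restricted and 61 42MGBA-restricted loops, and GLI3, a transcription factor of the hedgehog pathway, had 19 and 26. The 61 loops at COL12A1 had a median size of 24.4 kb.

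Neural and glial genes more often had loops restricted to H4. Of 18 genes of this list with merged loops, 12 had an H4-restricted loop (66.7%, against 34.9% of all genes) and 4 a 42MGBA-restricted loop (22.2%, against 34.7%), and none had both. Over their 592 loops the median log2 ratio was 0.46, or 0.58 after centring on each chromosome, against -0.13 and -0.02 over the loops of all genes. These medians rested on SLC1A2 and SOX6, both on chromosome 11, whose loops made up 333 of the 592. Without them the median was 0.069, or -0.066 after centring, while 10 of the remaining 16 genes had an H4-restricted loop (62.5%) and 4 a 42MGBA-restricted loop (25%). The chromosome 11 median was -0.18, but the 10 Mb windows of SOX6 and SLC1A2 had medians of 0.35 and 0.44. The 12 genes lay on 9 chromosomes. The 18 genes had a median of 13 merged loops, against 8 over all genes. No share of genes here or below is adjusted for the number of loops. SLC1A2, the main glutamate transporter of astrocytes, had 84 H4-restricted loops and 509 pairs in H4 against 248 in 42MGBA, and 400 in H4 88-1 against 38 in 42MGBA 53-1. SOX2, SOX6 and PTPRZ1, a receptor phosphatase of glial progenitors, were H4-only. PTPRZ1, with 29 pairs in H4, had 0 in H4 88-1. The strongest loop of SOX2 joined the gene at chr3:181426615-181431424 to chr3:181973390-181978321 over 547 kb, with strengths of 12.4 in H4, 13.2 in H4 88-1 and no listing in 42MGBA or 42MGBA 53-1. PDGFRA, the receptor of platelet-derived growth factor on glial progenitors, went the other way with 25 42MGBA-restricted and 26 shared loops, 44 pairs in H4 against 150 in 42MGBA, and 58 in H4 88-1 against 49 in 42MGBA 53-1. The count of 42MGBA thus stood apart from the other 3 lists.

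Mesenchymal and extracellular matrix genes showed the reverse. Of 46 genes with merged loops, 34 had a 42MGBA-restricted loop (73.9%, against 34.7% of all genes), on 17 chromosomes. Of the same 46, 12 had an H4-restricted loop (26.1%, against 34.9%), on 10 chromosomes, and 6 genes had both. The 46 genes had a median of 26 merged loops, against 8 over all genes, and the shares are not adjusted for this. The median log2 ratio of the 1891 loops of the list was -0.61, or -0.31 after centring on each chromosome. Without COL3A1 and COL6A3, the genes with the most loops, these medians were -0.60 and -0.32. Over the loops of all genes the median was -0.13, or -0.02 after centring. COL6A1, COL6A2, ZEB1 and ADAMTS5, a protease of proteoglycans, were 42MGBA-only, and no gene of the list was H4-only. COL3A1, the chain of type III collagen, had the most 42MGBA-restricted loops, 107, with 162 pairs in H4 against 471 in 42MGBA, and 114 in H4 88-1 against 393 in 42MGBA 53-1. TGFB2, a TGF-beta ligand, had the most H4-restricted loops, 51 against 2, with 302 pairs in H4 against 100 in 42MGBA, and 193 in H4 88-1 against 133 in 42MGBA 53-1. The strongest 42MGBA-restricted loop of CD44 joined exon sequence of PDHX at chr11:34998101-35003104 to an intron of CD44 at chr11:35191444-35196341, with strengths of 8.62 in 42MGBA and 5.59 in 42MGBA 53-1. The strongest 42MGBA-restricted loop of VIM ran 223 kb from an intron of CUBN, with strengths of 9.60 in 42MGBA and 10.0 in 42MGBA 53-1.

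The HOX genes, which set position along the body axis, more often had H4-restricted loops, at 4 clusters. Of 35 HOX genes with merged loops, 26 had an H4-restricted loop (74.3%, against 34.9% of all genes) and 9 a 42MGBA-restricted loop (25.7%, against 34.7%). The median log2 ratio of their 1494 loops was 0.38, and 0.04 after centring on each chromosome, whose medians include the loops of the HOX genes themselves. The genes with the most H4-restricted loops were of the HOXA and HOXB clusters, on chromosomes 7 and 17. On these chromosomes 33.2% and 33.9% of all merged loops were H4-restricted. The HOX genes had a median of 39 merged loops, against 8 over all genes. Counted per gene, 479 of their 2424 loops were H4-restricted, against 11320 of 83323 over all genes. Of 25 axon guidance genes, 10 had an H4-restricted loop (40%), with SEMA3C highest, and 8 a 42MGBA-restricted loop (32%), with SEMA5A highest at 38, and the median was 0.33, or 0.01 after centring. Without SEMA3D and SEMA3C the median was -0.32, or -0.21 after centring. Neighbouring genes of a cluster share anchors, so that they are not independent.

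Of 51 other developmental transcription factors, 26 had an H4-restricted loop (51.0%, against 34.9% of all genes) on 14 chromosomes. A 42MGBA-restricted loop was present at 15 (29.4%, against 34.7%), on 11 chromosomes. By loops, 177 were H4-restricted and 197 42MGBA-restricted of 1268, against 11320 and 12232 of 83323 over all genes, with a loop counted at each of its genes. These shares lie near those over all genes, and SNAI2 alone held 68 of the 197. The median log2 ratio was -0.15, or 0.05 after centring. TFAP2A, of neural crest, had 27 H4-restricted loops, and 117 pairs in H4 against 28 in 42MGBA, and 38 in H4 88-1 against 0 in 42MGBA 53-1. SNAI2, of epithelial-mesenchymal transition, had 68 42MGBA-restricted and 160 shared loops, and 249 pairs in H4 against 395 in 42MGBA, and 264 in H4 88-1 against 372 in 42MGBA 53-1. Both lines thus had strong loops at SNAI2, and 42MGBA had more.

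Signalling genes were divided nearly evenly by number of genes. Of 26 genes of receptor tyrosine kinases and their ligands, 11 had H4-restricted and 11 had 42MGBA-restricted loops (42.3% each, against 34.9% and 34.7% of all genes). By loops they were uneven, with 33 H4-restricted and 73 42MGBA-restricted of 515. Over all genes these were 11320 and 12232 of 83323, with a loop counted at each of its genes. The median log2 ratio of the list was 0.04, or -0.05 after centring, and 0.10 and 0.12 without EREG and PDGFRA. The 38 genes of the TGF-beta, BMP and WNT pathways held 226 H4-restricted and 209 42MGBA-restricted loops of 1002. Of these genes, 12 had H4-restricted (31.6%) and 16 had 42MGBA-restricted loops (42.1%). The median log2 ratio was -0.002, or -0.008 after centring. Without INHBA and TGFB2 it was -0.39, or -0.13 after centring. In this list the ligand INHBA had 57 H4-restricted and 14 42MGBA-restricted loops. It had 410 pairs in H4 against 247 in 42MGBA, and 367 in H4 88-1 against 235 in 42MGBA 53-1. WNT5A, a ligand of noncanonical WNT signalling, had 84 42MGBA-restricted loops and no H4-restricted loop, with 19 pairs in H4 against 256 in 42MGBA, and 90 in H4 88-1 against 267 in 42MGBA 53-1. The growth factor NRG1 had 5 H4-restricted loops.

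In the smaller lists the shares are set against 34.9% of all genes with H4-restricted and 34.7% with 42MGBA-restricted loops, and 1 gene moves them by several percent. Of 12 cadherins and adhesion genes, 6 had H4-restricted (50%) and 4 had 42MGBA-restricted loops (33.3%). By loops, 23 were H4-restricted and 45 42MGBA-restricted of 128, and 21 of the 45 lay at TENM2. Over all genes these were 11320 and 12232 of 83323, with a loop counted at each of its genes. FLRT3, an adhesion protein on chromosome 20, was H4-only with 20 pairs in H4 and 7 in H4 88-1, although the median of its chromosome was -0.64. TENM2, a teneurin, had 21 42MGBA-restricted loops. Of 11 cytokine and chemokine genes, 5 had H4-restricted loops (45.5%), with TSLP at 5, and 4 had 42MGBA-restricted loops (36.4%), with the interleukin 1 receptor IL1R1 at 9. By loops, 14 were H4-restricted and 25 42MGBA-restricted of 198, both smaller shares than the 11320 and 12232 of 83323 over all genes. Of 15 ribosomal protein genes, 2 had H4-restricted loops (13.3%), with RPL23A at 6, and 6 had 42MGBA-restricted loops (40%), with RPL29 at 8.

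Of 13 genes of cohesin, CTCF and Polycomb with merged loops, 3 had H4-restricted loops (23.1%, against 34.9% of all genes) and 6 had 42MGBA-restricted loops (46.2%, against 34.7%). STAG1, the paralog that remains when STAG2 is lost, had 15 H4-restricted loops of 22 merged loops and no 42MGBA-restricted loop, with 52 pairs in H4 against 9 in 42MGBA, and 36 in H4 88-1 against 9 in 42MGBA 53-1. Its strongest loop joined chr3:136472191-136477182 beside its start to chr3:136728618-136733599 at IL20RB over 256 kb, with strengths of 9.71 in H4, 10.7 in H4 88-1 and 6.15 in 42MGBA 53-1. The derivative of 42MGBA thus listed a loop that its parent did not. CTCFL, the paralog of CTCF expressed in germ cells, had 12 42MGBA-restricted and 3 shared loops, with 25 pairs in H4 against 41 in 42MGBA, and 33 in H4 88-1 against 43 in 42MGBA 53-1.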

How the data were processed

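Hi-C libraries were made with the Arima Hi-C+ kit. Per the labels and the study's methods, the authors trimmed reads to 36 bp, aligned them to hg19 with bowtie (version not given in the sources used here), removed PCR duplicates, left out pairs within a single restriction fragment, summed the rest at 5 kb anchors, ran HiCorr for bias correction and then LoopEnhance, the enhancement step of DeepLoop. They deposited 300000 pairs per cell line, with 2 replicates pooled and a contact signal, here called loop strength, for each pair. No scaling between lists is stated, depth is unknown from the files, and the lists carry no measure of copy number. They also hold the distance between anchors, which was recomputed here between midpoints.

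Lists were merged at the strongest 100000. Transcript starts of protein-coding genes were taken from GENCODE release 44 on GRCh37. The procedure was checked on copies of the real H4 list, with known pairs removed or scaled and known genes emptied of pairs. The copies were otherwise the same, so this checks only the counting. The genes named were, for each line, the 12 line-only genes with the most restricted loops (at most 1 per 1 Mb), the strongest restricted and shared loops, the largest ratios, 3 genes with restricted loops of both lines, the leading genes of 11 gene lists, and the markers. Some items that the rule or the marker list picked are not reported here. The merged loops, lists and genes were chosen with earlier results of these data known. RON was the only listed gene not matched to the annotation, and the marker PECAM1 was also unmatched. The 12 RNA-seq samples were not analysed here. Alternatives changed the number of loops merged, the matching of anchors, the scaling, the fold, the start window, the minimum of loops and the chromosomes. Computation used matplotlib 3.10.9, scipy 1.17.1, pandas 2.3.3 and numpy 2.4.6 under Python 3.11.15.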

Additional observations from a re-analysis of the deposited data

How the results depend on the processing

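With 1 pooled list per line, none of these results has a replicate check, and pairs below the lowest listed strength cannot be told from absent ones. No paired analysis was possible because the replicates were pooled into 1 list per cell line and no test was run. For the 12 main results, percentages that moved outside their 95% binomial interval and counts that moved by more than 1.5 times are given here. The interval treats loops as independent, which they are not, so it is only a cut-off for listing and no measure of error. Merging the strongest 50000 and 200000 gave shared percentages of 32.8 and 35.4, 6289 and 73994 H4-restricted loops, 6241 and 74144 42MGBA-restricted loops, 52 and 754 H4-only genes, and 55 and 560 42MGBA-only genes. The counts of 2-fold loops could not change under these settings. Any loop at least 2-fold above the floor of the other list ranked within the strongest 50000 of its own line. Under the same settings H4-restricted loops were listed in H4 88-1 and not in 42MGBA 53-1 in 78.3% and 57.8%, and 42MGBA-restricted loops in 42MGBA 53-1 and not in H4 88-1 in 54.2% and 51.2%. Matching anchors within 10 kb gave 66.6% shared, 9387 H4-restricted and 10931 42MGBA-restricted loops, and 74.5% and 53.2% for the derivatives. Joining neighbours gave 2923 and 3045 groups. The 2-fold counts for H4 and 42MGBA were 949 and 2394 among loops listed in both, 3818 and 3541 with equal values at each rank, 3575 and 3262 after centring on the median, and 16761 and 38923 at 1.5-fold. Minimums of 1 and 5 loops gave 444 and 134 H4-only genes and 359 and 136 42MGBA-only genes. The convergent share of 51.2% over all merged loops was 60.2% with a narrower motif and 54.8% at 50000. Alternatives chosen after seeing the data were a common floor and leaving out chromosomes 7 or 20, and of these the H4 count of 2-fold loops without chromosome 7, 1188, moved. The size difference stayed positive under every alternative run. The median log2 ratio of -0.10 depended on scaling: it was -0.009 with equal values at each rank, 0 by construction after centring, and between -0.17 and -0.06 under the other alternatives. For the line-only genes chosen by their number of restricted loops (12 per line), 27 of 96 counts stayed within 1.5 times. Merging 50000 left between 1 and 45 restricted loops per gene, with FIP1L1 falling to 5, APPL2 to 7 and HUWE1 to 1, and 200000 gave 32 to 148. Starts inside the anchor gave 9 to 42, with SOX6 at 30 and SLC24A3 at 16, and starts within 10 kb gave 25 to 117. The other line-only genes named were not recounted. Without the 2 genes with the most loops, also chosen after seeing the data, list medians changed sign for axon guidance (-0.32, centred -0.21), adhesion (0.13, centred 0.11), the centred neural and glial list (-0.066) and the centred receptor tyrosine kinases (0.12).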
